A study of Homo sapiens with 30 samples.

Results

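Autophagy and lysosome genes were described as a set of 37 genes among the 60675 in the deposited table. They were chosen by name for the role of their protein, with earlier results of these data known. The set holds 21 genes of autophagosome formation and cargo selection, 2 transcription factors (TFEB and TFE3) and 14 lysosomal genes, of which 9 encode hydrolases or their activator and 5 encode membrane proteins or parts of the proton pump. All 37 passed the filter on low counts, so no member was lost to it.

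The libraries come from HT29, an established human colorectal adenocarcinoma line, and each was harvested after 24 h with an herbal extract or the vehicle. The extracts were made with 70% ethanol from Banhasasim-tang, Sayeok-tang, Bojungikgi-tang and Yijung-tang, which are multi-herb formulas of Korean medicine, and each was given at 500, 100 and 20 µg/mL. The vehicle group received 0.1% DMSO and no extract. The 30 libraries form 13 groups: 3 libraries for the vehicle and for each dose of Sayeok and Bojungikgi, 2 for each dose of Banhasasim and 1 for each dose of Yijung. The study design sets each dose beside the others and beside the vehicle. All groups are 1 cell line, and nothing in the labels says that the libraries of a group came from separate cultures, so the p-values reflect library-to-library spread alone, which may be technical. Yijung had 1 library per dose and enters no test.

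Autophagy encloses cytoplasm in a double membrane, the autophagosome, and delivers it to the lysosome for breakdown. The ULK kinase complex and a phosphatidylinositol 3-kinase complex start the membrane, lipid carriers and PI3P-binding proteins extend it, and a conjugation system attaches ATG8-family proteins to it. Selective receptors then tie cargo to those ATG8 proteins. Inside the lysosome, a proton pump keeps the lumen acid and hydrolases digest what arrives. TFEB and TFE3 are sister transcription factors that enter the nucleus when the nutrient-sensing kinase complex mTORC1 is less active, and they bind a short E-box element shared by many lysosomal promoters.

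That element is shown first because it is what many of the lysosomal genes have in common and what the 2 transcription factors of the set are known to bind. The motif TCACGTG was searched on both strands, where its reverse complement is CACGTGA and both can share 1 CACGTG core, in RefSeq promoter sequences of GRCh38.p14 reaching from 250 bases before to 50 bases after each start. Of the 37 genes, 31 matched a promoter entry, with 39 promoters between them. The motif was present in 3.71% of all 35116 promoters, in 6 of the 9 lysosomal genes with an entry and in 2 of the 20 autophagy genes with an entry (2 of their 26 promoters). The 4 promoters of TFEB and TFE3 did not hold these letters in the window. The match farthest before the start is printed for each of these 8 genes on the gene's own strand, with the motif in capitals and 10 bases on either side.
ATP6V0D1: ccccttatggTCACGTGaggcgcttgc
CTSA: aggaagactgTCACGTGgcgccggagt
CTSD: cggccgcgccCACGTGAccggtccggg
NEU1: tgctgcgtgaTCACGTGggaggagatg
LAMP1: ccaggccgggTCACGTGggtccagggt
MCOLN1: ccagaggcggTCACGTGaggggctctg
ATG14: aacaaaatccCACGTGActggctctcc
ATG3: ctttctcacgTCACGTGccgggagagt
The windows lie at chr16:67481201-67481227 (minus strand) for ATP6V0D1, chr20:45891282-45891308 (plus) for CTSA, chr11:1763958-1763984 (minus) for CTSD, chr6:31862932-31862958 (minus) for NEU1, chr13:113297036-113297062 (plus) for LAMP1, chr19:7522572-7522598 (plus) for MCOLN1, chr14:55411835-55411861 (minus) for ATG14 and chr3:112561965-112561991 (minus) for ATG3. The motif began 60 bases before the start of ATP6V0D1, 43 before CTSA, 47 before CTSD, 127 before NEU1, 193 before LAMP1, 42 before MCOLN1, 21 before ATG14 and 19 before ATG3. LAMP1 carried 6 separate cores in its window, CTSA, MCOLN1 and ATG3 carried 2 each, and the others 1. A match describes the sequence and is not a measured binding site.

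The libraries held 36273849 to 71625585 counts (median 50054045). Levels are given as CPM (counts scaled to library size), adjusted by TMM, a normalisation factor per library, and a floor of 3 counts corresponds to 0.0419 to 0.0827 CPM, for counting error only. The cell type was checked on 11 colon epithelial markers, of which all reached 1 CPM (KRT8 was at 4900 to 7440 CPM, while CDX1 was at 0.832 to 1.64). Of the 6 fibroblast markers 2 reached 1 CPM (COL1A1 at 0.938 to 1.69, LUM at 0.459 to 1.33), and PDGFRA was at 0. Of the 4 endothelial markers 1 did (PECAM1 at 1.28 to 2.22), and KDR was at 0. Of the 5 leukocyte markers 2 did (LYZ at 1580 to 2020, CD14 at 2.69 to 4.99), and PTPRC stayed at or under 0.0737 CPM. COL1A1, LUM, PECAM1 and CD14 thus lay in or above the range of CDX1 in some libraries. Vehicle replicate 1 stood apart, with 6.91% of its counts on ribosomal protein genes. The other libraries ranged from 3.775%, in Bojungikgi 500 µg/mL replicate 2, to 5.887%. Counts without these libraries stand beside the comparisons with the vehicle. Mitochondrial ribosomal RNA took 12.862% and 9.408% of counts in the Banhasasim 500 µg/mL libraries and at most 1.914% elsewhere.

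The most abundant of the 37 transcripts encode lysosomal hydrolases and their activator. Per kilobase of exon (the union of a gene's exons in GENCODE 29), the median level over the 30 libraries ran from 1.43 CPM per kb for CTSL, a cysteine protease, to 194 CPM per kb for CTSD, the aspartic protease cathepsin D. PSAP, the precursor of the sphingolipid activator proteins, followed at 152 and CTSZ, cathepsin Z, at 131 CPM per kb. LAMP1, a major glycoprotein of the lysosomal membrane, lay at 71.8 CPM per kb. Among the autophagy genes SQSTM1, which encodes the cargo receptor p62, was highest at 49.1, followed by the ATG8-family gene GABARAP at 36.6 and ATG9A, a lipid scramblase, at 23.5 CPM per kb. The class medians were 8.43 CPM per kb for autophagy and 13.4 CPM per kb for lysosome genes. The lowest of the autophagy class were GABARAPL1 at 1.77, WIPI1 at 1.82 and ATG7 at 1.97 CPM per kb.

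**Figure D1:**
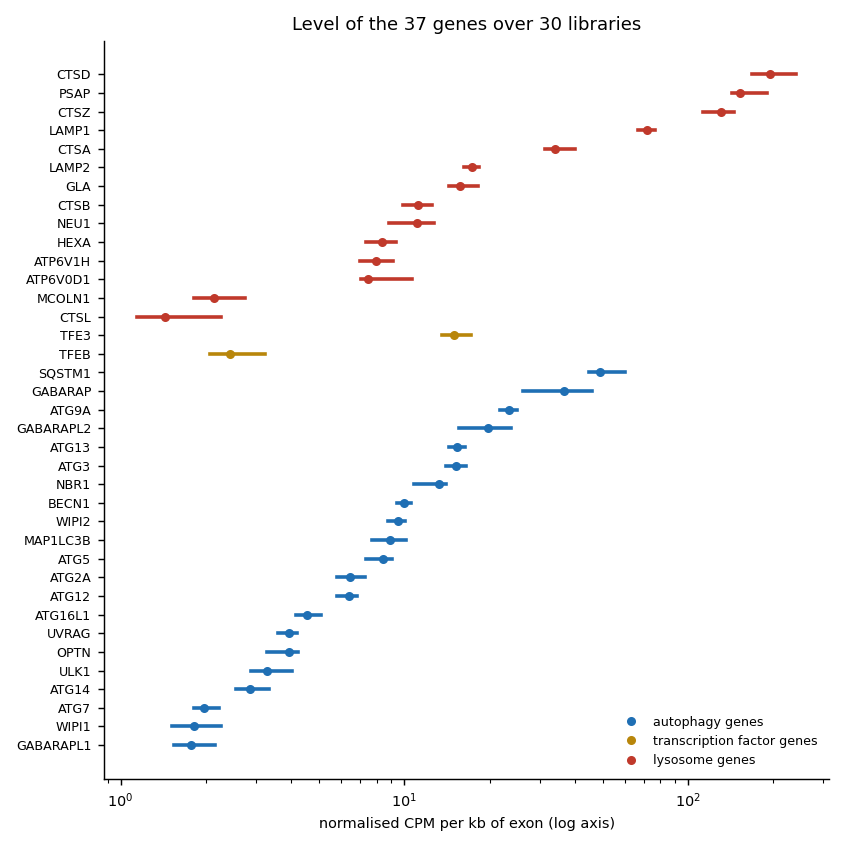
Level of each of the 37 genes in normalised CPM per kb of exon on a log axis. Points are medians over 30 libraries and bars run from the lowest to the highest library, coloured by class. CTSD, PSAP and CTSZ are the highest, and most bars are short beside the distance between genes.

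These levels moved little. The highest library exceeded the lowest by 1.12-fold to 1.98-fold, with a median of 1.28-fold, and for 31 of the 37 genes the ratio stayed under 1.5. The class medians of this ratio were 1.26 for autophagy and 1.29 for lysosome genes. The exons of 18 of the 37 genes overlap those of another gene in GENCODE 29, 16 of them on the opposite strand. The kit is directional, but no source used here gives the strand setting of the counting. Reads of such neighbours (MRNIP and MGAT4B at SQSTM1, ARSG at WIPI1, NEURL2 and PLTP at CTSA) may be split or shared. MAP1LC3B and GABARAPL1 have near-identical copies elsewhere in the genome and are uncertain in the same way.

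The first comparison asks what the highest dose of an extract did relative to its lowest. Few of the 37 genes responded, and those that did changed by less than 1.5-fold. Calls required an adjusted p under 0.05 from edgeR's quasi-likelihood test, with the Benjamini-Hochberg adjustment run over the 18783 genes tested. For Banhasasim, 3 of the 37 were higher at 500 than at 20 µg/mL and none lower, where 7.82% of all genes tested were called (3.82% higher, 4.0% lower). For Sayeok 3 were higher and 1 was lower, against 3.18% of all genes (1.14% higher, 2.03% lower). For Bojungikgi 2 were lower and none higher, against 1.76% (0.602% higher, 1.16% lower). At an unadjusted p under 0.05 the counts were 7, 9 and 8. DESeq2 called 4, 4 and 3 of the 37, beside 1544, 683 and 483 of all genes. The share of all genes at that unadjusted threshold was not counted, here or in later comparisons. With mitochondrial genes left out of the table, the Banhasasim count was again 3, beside 1451 of all genes. The median log2 change of the 37 genes was 0.029, 0.025 and -0.028, and that of all genes tested was 0.005, 0.004 and 0.001. The genes called were SQSTM1, OPTN and WIPI1 among the autophagy genes, TFE3 of the transcription factors, and CTSL, GLA and NEU1 of the lysosome genes.

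**Figure D2:**
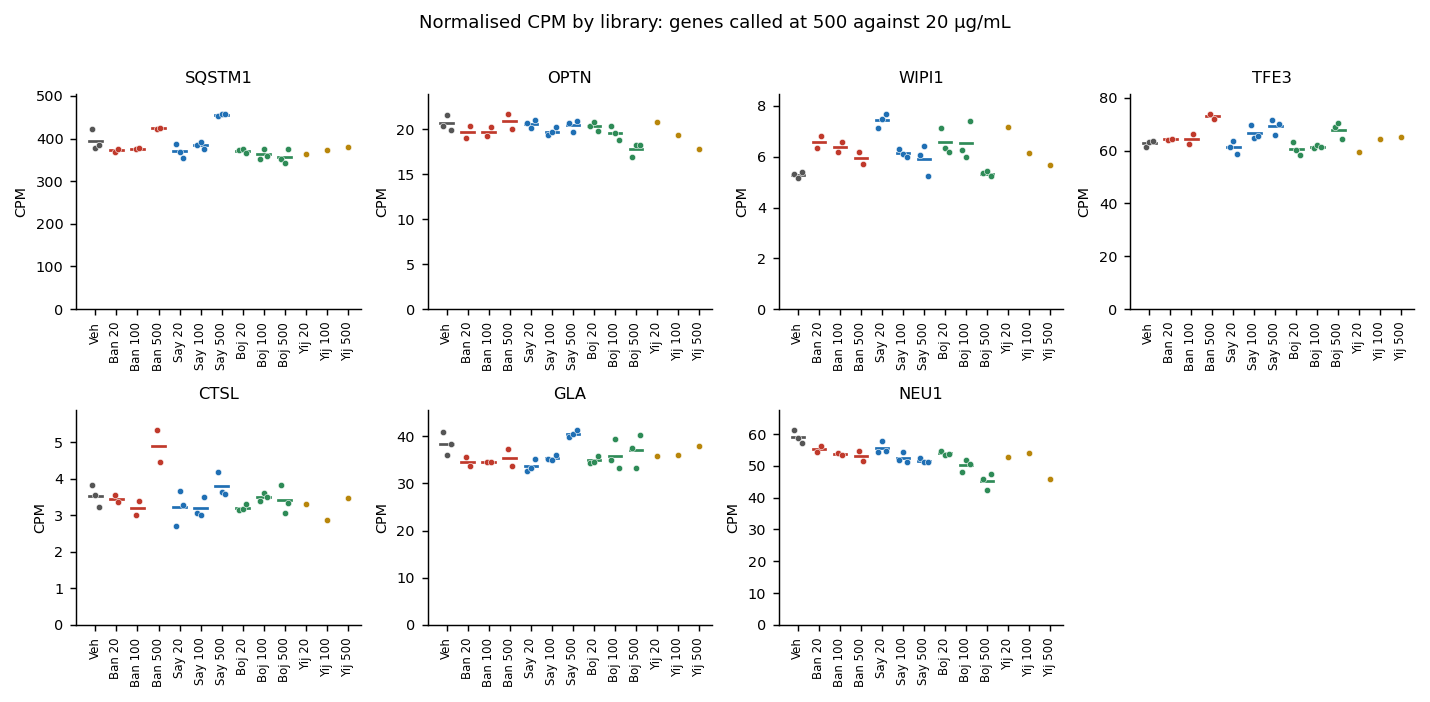
Normalised CPM of the 7 genes called in at least 1 comparison of 500 with 20 µg/mL, in each of the 30 libraries, by group (Veh, vehicle; Ban, Banhasasim; Say, Sayeok; Boj, Bojungikgi; Yij, Yijung; doses in µg/mL). Points are libraries and lines are group means, with axes starting at 0. SQSTM1 is highest in the 3 Sayeok 500 µg/mL libraries, and NEU1 is lowest in the Bojungikgi and Yijung 500 µg/mL libraries.

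Among the selective receptors, SQSTM1 (ENSG00000161011, chromosome 5, 179806398 to 179838078 on GRCh38) encodes p62, which binds ubiquitinated cargo and LC3 and is itself degraded by autophagy. With Sayeok it was at 452, 458 and 457 CPM at 500 µg/mL and at 388, 369 and 354 CPM at 20 µg/mL. The doses did not overlap, and the 100 µg/mL libraries, at 384, 393 and 376 CPM, lay close to the lower dose. Overlap between doses, here and below, describes the libraries the test itself used, and its share over all genes was not counted. The means were 456 ± 3.21 and 370 ± 17.0 CPM (SD, n = 3), a log2 change of 0.30 ± 0.04 (SE; edgeR adjusted p = 0.000132). This call was kept in all 13 alternative settings. With Banhasasim SQSTM1 was at 423 and 425 CPM at 500 µg/mL and at 369 and 376 CPM at 20 µg/mL, a log2 change of 0.18 ± 0.05 (adjusted p = 0.0363), again without overlap. That call was kept in 4 of 11 alternatives and was lost when any 1 of its 4 libraries was left out (adjusted p up to 0.216). With Bojungikgi it was at 353, 343 and 376 CPM at 500 µg/mL and at 373, 375 and 367 CPM at 20 µg/mL. These ranges overlapped and the log2 difference was -0.06 ± 0.04 (adjusted p = 0.647). The vehicle libraries were at 423, 378 and 385 CPM, so vehicle replicate 1 matched the Banhasasim 500 µg/mL libraries.

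OPTN (ENSG00000123240, chromosome 10, 13099449 to 13138308) encodes optineurin, a receptor for damaged mitochondria and bacteria. With Bojungikgi it was at 16.9, 18.2 and 18.2 CPM at 500 µg/mL and at 20.3, 20.8 and 19.8 CPM at 20 µg/mL. All libraries of the higher dose lay below those of the lower one, and the log2 change was -0.20 ± 0.05 (adjusted p = 0.0476). The call was kept in 5 of 13 alternatives (adjusted p up to 0.22), and it was lost when any 1 of the 6 libraries except Bojungikgi 500 µg/mL replicate 3 was left out. The corresponding log2 differences were 0.09 ± 0.06 for Banhasasim and -0.01 ± 0.05 for Sayeok, and neither was called. NBR1, a receptor with the domain plan of p62, differed between these doses by -0.10 to 0.00 on the log2 scale and was not called.

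WIPI1 (ENSG00000070540, chromosome 17, 68420948 to 68457513), a protein that binds PI3P on the forming autophagosome, went the other way from SQSTM1. With Sayeok it was at 6.06, 6.44 and 5.25 CPM at 500 µg/mL and at 7.15, 7.47 and 7.69 CPM at 20 µg/mL. The doses did not overlap and the log2 change was -0.32 ± 0.08 (adjusted p = 0.0286), kept in 8 of 13 alternatives. The losses came without Sayeok 500 µg/mL replicates 1 or 3, without Sayeok 20 µg/mL replicates 2 or 3, and with no filter on low counts (adjusted p up to 0.155). With Bojungikgi the libraries were at 5.34, 5.42 and 5.23 CPM at 500 µg/mL and at 7.15, 6.36 and 6.20 CPM at 20 µg/mL, a log2 difference of -0.30 ± 0.08 that was not called (adjusted p = 0.0646). With Banhasasim it was -0.15 ± 0.10 (adjusted p = 0.441). The differences between extracts in this change were -0.02 ± 0.12 for Sayeok less Bojungikgi and 0.17 ± 0.13 for Banhasasim less Sayeok, and neither passed the test. The vehicle libraries, at 5.31, 5.17 and 5.39 CPM, lay with the 500 µg/mL libraries of Bojungikgi.

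The other 18 autophagy genes were not called at 500 against 20 µg/mL with any extract. The ATG8 family, whose members are lipidated onto the autophagosome membrane, had log2 differences from -0.21 ± 0.11 (GABARAP, Bojungikgi) to 0.12 (MAP1LC3B with Banhasasim and GABARAPL1 with Sayeok). ULK1, the kinase that starts autophagy, differed by 0.17 with Banhasasim, 0.12 with Sayeok and -0.04 with Bojungikgi. BECN1, UVRAG and ATG14 of the PI3-kinase complex stayed between -0.14 and 0.09. The 5 conjugation genes, which include the E1-like ATG7, the E2-like ATG3 and the ATG12, ATG5 and ATG16L1 proteins of the conjugation complex, stayed between -0.13 and 0.13.

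**Figure D3:**
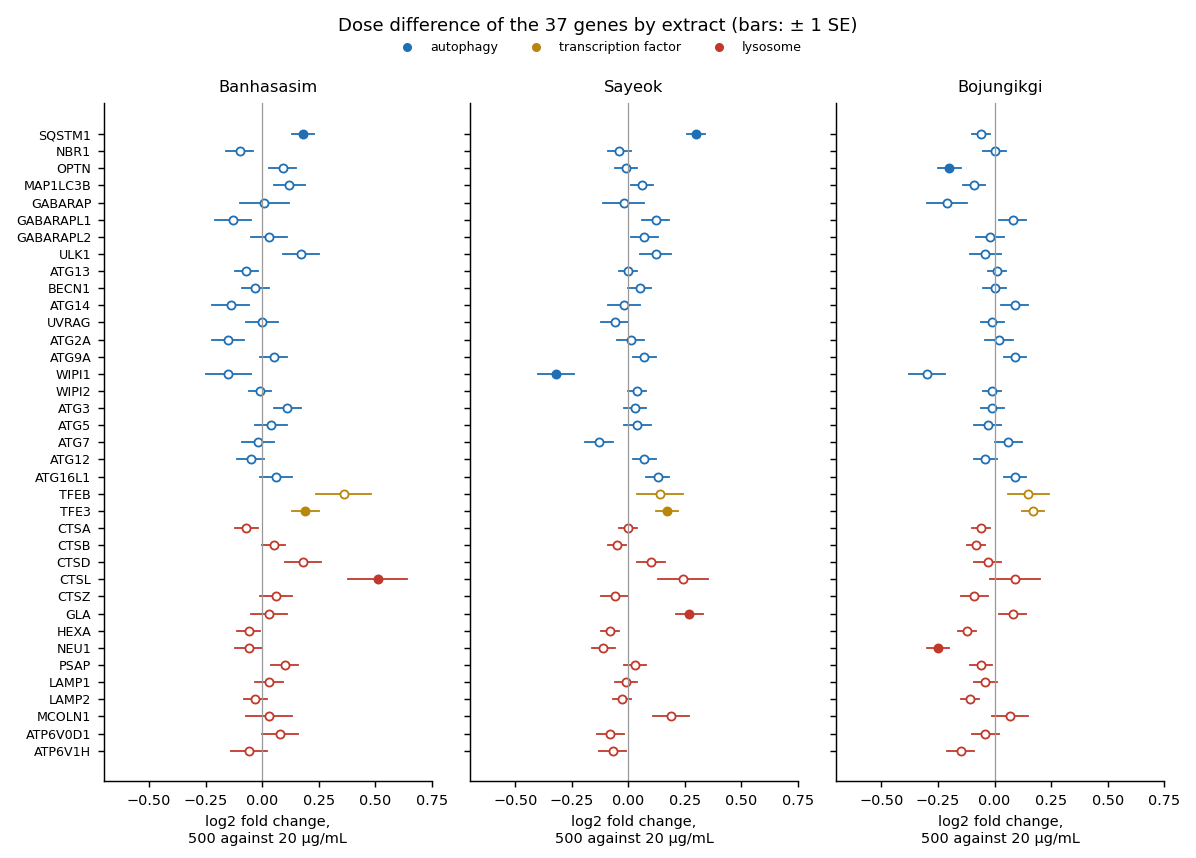
Log2 fold change of the 37 genes at 500 against 20 µg/mL for 3 extracts, with bars of 1 SE. Filled points passed the test, open points did not, and colours give the class. TFE3 lies right of 0 in all 3 panels, and SQSTM1 lies right of 0 with Banhasasim and Sayeok and left of it with Bojungikgi, where it was not called.

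The transcription factor TFE3 (ENSG00000068323, chromosome X, 49028726 to 49043486) was higher at 500 than at 20 µg/mL in the libraries of all 3 extracts, without overlap. With Banhasasim it was at 73.9 and 72.1 CPM against 64.1 and 64.3 CPM (log2 change 0.19 ± 0.06, adjusted p = 0.0392). With Sayeok it was at 71.5, 65.7 and 70.2 CPM against 61.4, 63.5 and 58.7 CPM (0.17 ± 0.05, adjusted p = 0.0316). With Bojungikgi it was at 69.1, 70.3 and 64.2 CPM against 63.2, 60.1 and 58.2 CPM, and this difference of the same size was not called (0.17 ± 0.05, adjusted p = 0.0562). The pairwise differences between extracts were 0.01 to 0.02 with SEs of 0.06 to 0.07. The call was kept in 4 of 11 alternatives for Banhasasim, where leaving out any 1 library ended it and a correction for exon length and GC content took the change to 0.11 (adjusted p = 0.234), and in 7 of 13 for Sayeok, where it ended without replicate 1 or 3 of either dose. Its sister gene TFEB, at a median of 2.44 against 15.0 CPM per kb for TFE3, had log2 differences of 0.36, 0.14 and 0.15 that were not called. With the length and GC correction TFEB was called with Banhasasim (0.29, adjusted p = 0.0341), and TFE3 with Bojungikgi (0.18, adjusted p = 0.0182).

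Of the hydrolases, CTSL (ENSG00000135047, chromosome 9, 87725519 to 87731393), which encodes the cysteine protease cathepsin L, had the largest change. With Banhasasim it was at 5.34 and 4.45 CPM at 500 µg/mL and at 3.56 and 3.35 CPM at 20 µg/mL. The log2 change was 0.51 ± 0.13 (adjusted p = 0.016), or 1.42-fold. It was kept in 7 of 11 alternatives (log2 0.37 to 0.63), and was lost without Banhasasim 500 µg/mL replicate 2 or without either 20 µg/mL library. The 100 µg/mL libraries, at 3.01 and 3.38 CPM, lay with or below those of the lowest dose. With Sayeok and Bojungikgi the log2 differences were 0.24 ± 0.11 and 0.09 ± 0.11 and the libraries overlapped. The Banhasasim change exceeded that of Bojungikgi by 0.42 ± 0.17, which did not pass (adjusted p = 0.242).

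GLA (ENSG00000102393, chromosome X, 101397803 to 101408012) encodes alpha-galactosidase A, the enzyme lacking in Fabry disease. With Sayeok it was at 39.9, 40.4 and 41.4 CPM at 500 µg/mL and at 32.7, 33.2 and 35.2 CPM at 20 µg/mL. The doses did not overlap, the 100 µg/mL libraries lay close to the lower dose at 35.1, 35.0 and 36.1 CPM, and the log2 change was 0.27 ± 0.06 (adjusted p = 0.0167). The call was kept in 9 of 13 alternatives and lost without Sayeok 500 µg/mL replicates 2 or 3 or Sayeok 20 µg/mL replicates 1 or 2 (adjusted p up to 0.101). The vehicle libraries were at 40.8, 36.1 and 38.3 CPM, so the 500 µg/mL libraries lay within or just above the vehicle range and the 20 µg/mL libraries below it.

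NEU1 (ENSG00000204386, chromosome 6, 31857659 to 31862906) encodes the lysosomal sialidase, which is stable only in a complex with the product of CTSA. With Bojungikgi it was at 45.9, 42.5 and 47.4 CPM at 500 µg/mL, at 48.2, 51.8 and 50.7 CPM at 100 µg/mL and at 54.8, 53.4 and 53.8 CPM at 20 µg/mL. The 3 doses did not overlap one another. From 20 to 500 µg/mL the log2 change was -0.25 ± 0.05 (adjusted p = 0.00203), kept in 12 of 13 alternatives and lost in a fit of these 2 groups alone (adjusted p = 0.119). The differences of -0.11 ± 0.05 with Sayeok and -0.06 ± 0.06 with Banhasasim were not called. The vehicle libraries, at 61.4, 58.7 and 57.1 CPM, lay above all the Bojungikgi libraries.

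The remaining 11 lysosome genes were not called at 500 against 20 µg/mL. CTSD had log2 differences of 0.18, 0.10 and -0.03 with Banhasasim, Sayeok and Bojungikgi, and PSAP of 0.10, 0.03 and -0.06. The membrane glycoproteins LAMP1 and LAMP2 stayed between -0.11 and 0.03. MCOLN1, a calcium channel of the lysosomal membrane, reached 0.19 with Sayeok, and the proton pump genes ATP6V0D1 and ATP6V1H lay between -0.15 and 0.08. By class, 1 of 21 autophagy and 1 of 14 lysosome genes passed with Banhasasim, 2 and 1 with Sayeok, and 1 and 1 with Bojungikgi. Class medians were -0.003 and 0.034 with Banhasasim, 0.037 and -0.02 with Sayeok, and -0.007 and -0.057 with Bojungikgi.

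At 100 against 20 µg/mL none of the 37 genes was called with any extract, in edgeR or in DESeq2. Of all genes tested, 0.0852% were called with Banhasasim, 0.0% with Sayeok and 0.0106% with Bojungikgi, so almost nothing in the table passed. At an unadjusted p under 0.05 there were 0, 5 and 1 of the 37, a threshold at which the share of all genes was not counted. The 5 with Sayeok were WIPI1 (-0.28 ± 0.08 on the log2 scale), GABARAPL1 (-0.18 ± 0.06), ULK1 (0.15 ± 0.07), TFE3 (0.12 ± 0.05) and ATG16L1 (0.12 ± 0.05), and the 1 with Bojungikgi was NEU1 (-0.10 ± 0.05).

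Whether the dose change differed between extracts was tested by interaction terms. The only 1 of the 37 genes that passed was SQSTM1. The change of SQSTM1 with Sayeok exceeded that with Bojungikgi by 0.36 ± 0.06 on the log2 scale (adjusted p = 0.0277), where 0.0266% of all genes were called. With Sayeok, 3 of 3 libraries at 500 µg/mL lay above every 20 µg/mL library, whereas the Bojungikgi doses overlapped. The call was kept in 8 of 19 alternatives (log2 0.33 to 0.40), and leaving out any 1 of the 12 libraries other than Sayeok 20 µg/mL replicate 1 or Bojungikgi 500 µg/mL replicate 3 ended it (adjusted p up to 0.176). Between Banhasasim and Bojungikgi the difference was 0.24 ± 0.07 for SQSTM1 (adjusted p = 0.0766) and 0.28 ± 0.08 for OPTN (adjusted p = 0.0731). No member was called by edgeR in that comparison, where 2.06% of all genes were, 8 had an unadjusted p under 0.05 and DESeq2 called 1. DESeq2 called 554 of all genes there. Between Banhasasim and Sayeok no member was called by either tool, against 1.04% of all genes with edgeR, and 2 had an unadjusted p under 0.05.

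The second comparison sets the highest dose beside the vehicle. Here more of the 37 genes passed, and of the lysosome genes that passed all but CTSL with Banhasasim were lower with extract. With Banhasasim 7 were called (4 higher, 3 lower), where 15.3% of all genes tested were called (8.16% higher, 7.12% lower). With Sayeok 12 were called (5 higher, 7 lower), against 16.6% of all genes (8.33% higher, 8.27% lower). With Bojungikgi 16 were called (2 higher, 14 lower), against 29.7% (14.3% higher, 15.4% lower). Of the 14 lysosome genes, 3 were lower and 1 higher with Banhasasim, 7 lower with Sayeok and 9 lower with Bojungikgi, and without vehicle replicate 1 the counts of lower genes were 2, 4 and 8. Of all genes tested, 2203, 1437 and 2822 were then called in either direction, where all libraries gave 2870, 3117 and 5580. Of the 21 autophagy genes, with all libraries in, 2 were higher with Banhasasim, 4 higher with Sayeok, and 2 higher and 5 lower with Bojungikgi. The median log2 difference was -0.115, -0.136 and -0.214 for lysosome genes and 0.00, 0.038 and -0.013 for autophagy genes, beside -0.015, -0.013 and -0.006 for all genes tested. These comparisons share the same 3 vehicle libraries.

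The lowest dose was set beside the vehicle as well, a comparison added after the values against the vehicle had been seen. With Banhasasim 9 of the 37 were called, 4 higher and 5 lower, against 12.7% of all genes (6.43% higher, 6.23% lower). With Sayeok 13 were called, 3 higher and 10 lower, against 18.9% (8.87% higher, 10.1% lower). With Bojungikgi 10 were called, 2 higher and 8 lower, against 18.3% (9.11% higher, 9.2% lower). Of the 14 lysosome genes 5, 7 and 6 were lower, with class medians of -0.126, -0.147 and -0.136. Without vehicle replicate 1, edgeR called 1, 0 and 3 of them lower, 5, 6 and 5 had an unadjusted p under 0.05, and the medians were -0.106, -0.121 and -0.095. Of all genes tested, 608, 990 and 844 were then called in either direction, where all libraries gave 2379, 3555 and 3440. These comparisons share the vehicle libraries with the ones above. The autophagy medians were -0.003, -0.001 and -0.014.

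**Figure D4:**
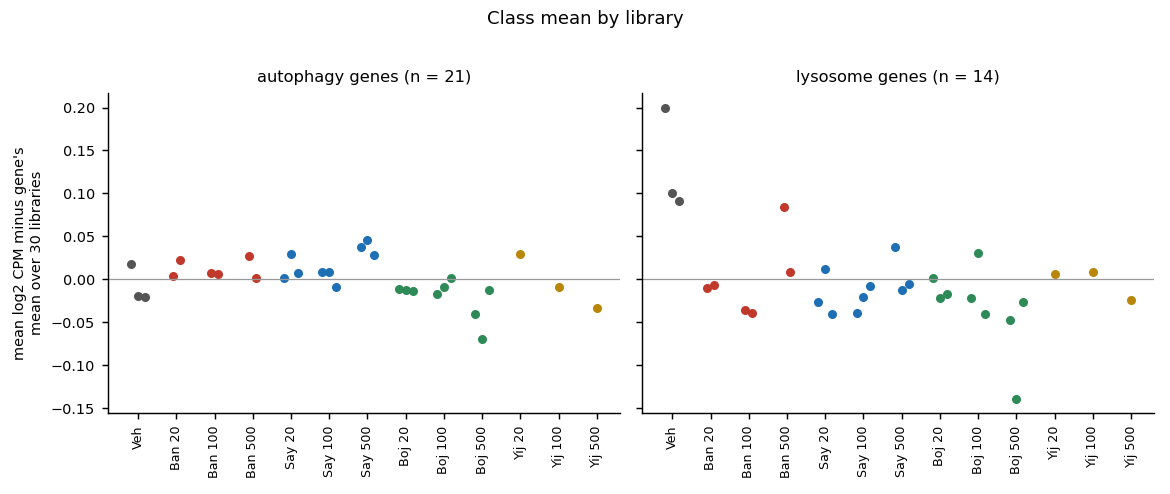
Mean over the 21 autophagy genes (left) and the 14 lysosome genes (right) of log2 CPM less each gene's own mean over 30 libraries, 1 point per library, by group (Veh, vehicle; Ban, Banhasasim; Say, Sayeok; Boj, Bojungikgi; Yij, Yijung; doses in µg/mL). The vehicle libraries lie at 0.091 to 0.2 for lysosome genes and at -0.021 to 0.018 for autophagy genes, and vehicle replicate 1 is the highest point of the lysosome panel.

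By library, the class mean of the lysosome genes (log2 CPM less each gene's mean over all libraries) was 0.2, 0.101 and 0.091 in vehicle replicates 1 to 3 and between -0.139 and 0.084 in the 27 extract libraries. The extract libraries thus lay below the vehicle, the nearest being Banhasasim 500 µg/mL replicate 2 and the farthest Bojungikgi 500 µg/mL replicate 2. A length score per library was the median deviation of the fifth of genes with the longest exons less that of the shortest. It was -0.384, -0.148 and -0.079 in vehicle replicates 1 to 3. The nearest and farthest extract libraries were at its extremes among extract libraries, at -0.145 and 0.207. Beyond the corrected values given below, its part in the separation was not tested. For the autophagy genes the vehicle range of the class mean, -0.021 to 0.018, fell inside the extract range of -0.07 to 0.046. For 5 of the 37 genes no extract library overlapped the vehicle libraries: ATP6V0D1, CTSA, CTSB and GABARAPL2 were lower in every extract library and NBR1 was higher. Of all genes tested, 6.61% were separated in this way (3.66% lower with extract, 2.94% higher). Without vehicle replicate 1 the same 5 genes were separated, against 7.52% of all genes.

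ATP6V0D1 (ENSG00000159720, chromosome 16, 67438014 to 67481237) encodes a subunit of the membrane sector of the proton pump. It was at 87.8, 72.7 and 73.9 CPM in the vehicle libraries and at 57.6 to 69.1 CPM (median 60.7) in the 27 extract libraries. The log2 change at 500 µg/mL was -0.30 ± 0.07 with Banhasasim, -0.35 ± 0.06 with Sayeok and -0.39 ± 0.06 with Bojungikgi, with adjusted p from 9.86e-05 to 0.00392. At 20 µg/mL it was -0.37 ± 0.07, -0.27 ± 0.06 and -0.34 ± 0.06. Without vehicle replicate 1 the 500 µg/mL values were -0.21, -0.26 and -0.30 and all were still called, while Sayeok at 20 µg/mL was not (-0.18, adjusted p = 0.0568). ATP6V1H, a subunit of the cytosolic sector, was lower at 500 µg/mL with Sayeok and Bojungikgi (-0.24 in both).

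CTSA (ENSG00000064601, chromosome 20, 45890144 to 45898820) encodes cathepsin A, the carboxypeptidase that protects the NEU1 sialidase. It was at 235, 221 and 222 CPM in the vehicle libraries and at 184 to 211 CPM (median 199) in the extract libraries. At 500 µg/mL the log2 change was -0.22 ± 0.05 with Banhasasim, -0.16 ± 0.04 with Sayeok and -0.25 ± 0.04 with Bojungikgi, and at 20 µg/mL it was -0.15 ± 0.05, -0.16 ± 0.04 and -0.20 ± 0.04. Without vehicle replicate 1, 3 of these 6 calls were kept. NEU1 itself was lower at 500 µg/mL by 0.15, 0.19 and 0.38 on the log2 scale, the last with an adjusted p of 5.11e-06 that held in all 14 alternatives. The Banhasasim call was kept in 5 of 12 alternatives and lost without vehicle replicate 1 (-0.13, adjusted p = 0.142). The Sayeok call was kept in all 13 of its alternatives. CTSB, the cysteine protease cathepsin B, was at 92.9, 90.0 and 90.2 CPM in the vehicle and at 73.6 to 87.2 CPM (median 82.9) in the extract libraries.

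The abundant CTSD and PSAP transcripts were lower with Bojungikgi at 500 µg/mL, with log2 changes of -0.30 and -0.25, and PSAP also with Sayeok (-0.19). With exon length and GC content taken out the Bojungikgi change of CTSD was -0.15, and still called. At 20 µg/mL CTSD was at -0.27, -0.24 and -0.27 and PSAP at -0.21, -0.21 and -0.19 for Banhasasim, Sayeok and Bojungikgi, and all 6 were called. With the length and GC correction CTSD was at -0.14, -0.11 and -0.16 and still called, while PSAP was at -0.12, -0.12 and -0.09 and was not. The PSAP calls at this dose and the CTSD calls with Banhasasim and Sayeok were lost without vehicle replicate 1. LAMP1 and LAMP2 were not called against the vehicle, with differences of -0.09 to 0.04. CTSL was the only lysosome gene called higher than in the vehicle in these 6 comparisons (0.47, Banhasasim at 500 µg/mL), and that call was lost without replicate 2 of the dose (0.34, adjusted p = 0.149).

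Among the autophagy genes NBR1 (ENSG00000188554, chromosome 17, 43170481 to 43211689) was at 90.9, 97.7 and 104 CPM in the vehicle libraries and at 106 to 118 CPM (median 113) in the extract libraries. The log2 change was 0.16 to 0.20 at 500 µg/mL and 0.20 to 0.26 at 20 µg/mL (SE 0.05), all called, of which 3 of 6 were kept without vehicle replicate 1. ULK1 was at 21.9, 23.7 and 22.1 CPM in the vehicle, and was higher at 500 µg/mL with Banhasasim (29.9 and 30.7 CPM; 0.42 ± 0.07, adjusted p = 0.000211) and Sayeok (27.9, 26.8 and 28.0 CPM; 0.28 ± 0.07, adjusted p = 0.00477). With Bojungikgi it was at 24.3, 24.8 and 22.9 CPM and was not called (0.08 ± 0.07). Both ULK1 calls at 500 µg/mL held in all their alternatives. GABARAPL1 was higher with Sayeok at 500 µg/mL (8.80, 8.47 and 8.81 against 6.51, 6.31 and 7.29 CPM in the vehicle; 0.38 ± 0.06). WIPI1 was higher at 20 µg/mL, by 0.32 with Banhasasim, 0.49 with Sayeok and 0.31 with Bojungikgi. The Banhasasim and Bojungikgi calls were lost without vehicle replicate 1 (adjusted p = 0.0775 and 0.0543).

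The other ATG8 genes were lower with Bojungikgi at 500 µg/mL: GABARAP by -0.36 ± 0.09, GABARAPL2 by -0.28 ± 0.06 and MAP1LC3B by -0.16 ± 0.05. In Bojungikgi 500 µg/mL replicate 2, the library with the lowest ribosomal protein share, GABARAP was at 59.6 CPM, GABARAPL2 at 47.4 CPM and MAP1LC3B at 41.0 CPM, each the lowest of the 30 libraries. Without that library and vehicle replicate 1 together, GABARAP was at -0.14 (adjusted p = 0.194) and GABARAPL2 at -0.13, and none of the 3 was called. SQSTM1 was higher than in the vehicle with Sayeok (0.21 ± 0.04) and lower with Bojungikgi (-0.15 ± 0.04). The Bojungikgi call was lost without vehicle replicate 1 (-0.10, adjusted p = 0.133), and the Sayeok one was kept (0.25).

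**Figure D5:**
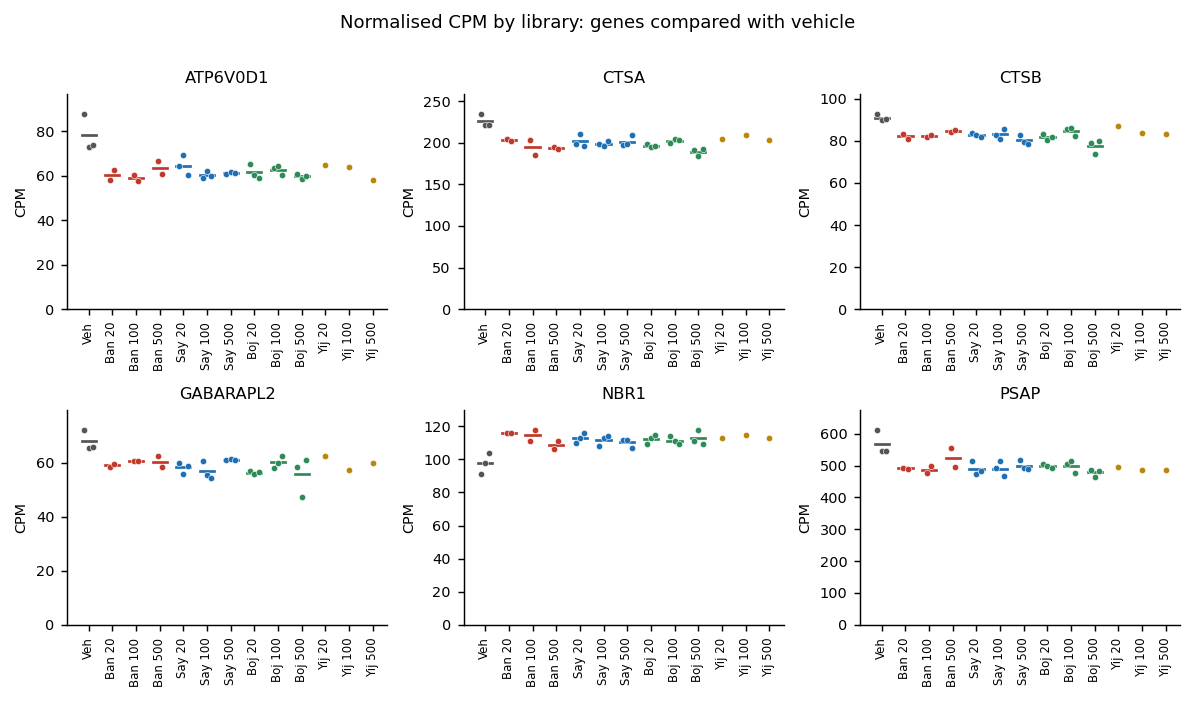
Normalised CPM in each of the 30 libraries of the 5 genes whose vehicle and extract libraries did not overlap, and of PSAP, by group (Veh, vehicle; Ban, Banhasasim; Say, Sayeok; Boj, Bojungikgi; Yij, Yijung; doses in µg/mL). Lines are group means and axes start at 0. Vehicle replicate 1, the left vehicle point, is the highest for ATP6V0D1, CTSA, CTSB, GABARAPL2 and PSAP and the lowest for NBR1.

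Several library properties moved with the comparisons against the vehicle. Over all genes with a length, the fifth with the shortest exons had a median log2 difference of -0.132, -0.103 and -0.144 at 500 µg/mL for Banhasasim, Sayeok and Bojungikgi, and the fifth with the longest 0.026, 0.054 and 0.117. With Bojungikgi the fifth with the lowest GC content was at 0.125 and the fifth with the highest at -0.123. The lysosome genes have a median exon length of 4956 bases and GC content of 54.2%, and the autophagy genes 6111 bases and 49.5%. With length and GC content taken out as an offset in each library, the lysosome medians at 500 µg/mL were -0.082, -0.101 and -0.177, and 54 of the 67 calls against the vehicle were kept. All 6 calls of ATP6V0D1 and NBR1 and 5 of 6 of CTSA were among those kept, while 1 of 5 calls of PSAP was. Without vehicle replicate 1, 33 of the 67 calls were kept, and the counts were 6, 7 and 12 at 500 µg/mL and 3, 3 and 3 at 20 µg/mL. Over all genes tested the counts fell as well, to 2203, 1437 and 2822 at 500 µg/mL and 608, 990 and 844 at 20 µg/mL. The lysosome medians at 500 µg/mL were then -0.081, -0.111 and -0.18. With Bojungikgi 500 µg/mL replicate 2 left out as well, the Bojungikgi count at 500 µg/mL was 7, beside 1569 of all genes tested. The 11 colon epithelial markers summed to 11400 to 13400 CPM in the vehicle libraries and to 9960 to 11100 CPM in the extract libraries. KRT8, at 4900 to 7440 CPM, and KRT18, at 2860 to 3780 CPM, weighed most in this sum. In a bulk culture fewer cells of a state and less RNA per cell cannot be told apart. Beyond the corrected and left-out values given here, the part of these properties in the result was not tested. The sample codes also place the vehicle in a series of its own, so code series and treatment cannot be told apart for these comparisons. They separate Banhasasim and Yijung from Sayeok and Bojungikgi as well, so differences between Banhasasim and those extracts cross code series. All titles name the same batch, and what the codes stand for is not given. The labels give DMSO for the vehicle alone, so whether the extract libraries received it is not known. The vehicle libraries do not enter the comparison of 500 with 20 µg/mL, where the median log2 difference of the fifth with the shortest and the fifth with the longest exons was 0.024 and -0.064 with Banhasasim, 0.049 and -0.029 with Sayeok and -0.029 and 0.027 with Bojungikgi. For the fifth with the lowest and that with the highest GC content it was -0.04 and 0.076 with Banhasasim, 0.001 and 0.01 with Sayeok and 0.019 and -0.013 with Bojungikgi.

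Further genes of the same pathways were counted on 4 lists. Of 40 tested genes of the autophagy machinery, 1 was higher and 2 lower at 500 than at 20 µg/mL with Banhasasim, and 1 was lower with Sayeok and with Bojungikgi. That is 7.5%, 2.5% and 2.5% of the list, against 7.82%, 3.18% and 1.76% of all genes tested. CALCOCO2, the receptor NDP52, rose with Banhasasim by 0.31 ± 0.05 on the log2 scale (adjusted p = 0.000338), from 31.4 ± 0.689 to 39.0 ± 0.000751 CPM (SD, n = 2). Its change exceeded that with Sayeok by 0.35 ± 0.07 (adjusted p = 0.00775) and that with Bojungikgi by 0.35 ± 0.07 (adjusted p = 0.00559). TP53INP2, a nuclear protein that supports autophagosome formation, fell with all 3 extracts, by -0.72, -0.31 and -0.31.

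Of 36 lysosomal enzymes and activators, 2 were higher and 4 lower with Banhasasim, 3 lower with Sayeok and 4 lower with Bojungikgi, or 16.7%, 8.33% and 11.1% of the list. DNASE2, the lysosomal DNase, rose with Banhasasim by 0.49 ± 0.09 (adjusted p = 0.000435), 0.62 ± 0.11 more than with Bojungikgi (adjusted p = 0.00179). The difference from Sayeok, 0.43 ± 0.11, did not pass (adjusted p = 0.0652). CTSO fell by -0.59 ± 0.10 with Sayeok and -0.43 ± 0.10 with Bojungikgi, and FUCA1, the lysosomal fucosidase, by -0.26 and -0.27. Of 33 membrane and proton pump genes, 3, 2 and 1 were lower and none higher, or 9.09%, 6.06% and 3.03% of the list. ATP6V1B1, a tissue-restricted isoform of the pump's B subunit, fell with each extract, by -0.65 ± 0.08, -0.65 ± 0.07 and -0.56 ± 0.07.

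Of 34 regulators of mTORC1 and TFEB, 2 were higher and 4 lower with Banhasasim, 1 higher and 2 lower with Sayeok, and 3 lower with Bojungikgi, or 17.6%, 8.82% and 8.82% of the list. DDIT4, a stress-induced inhibitor of mTORC1, rose with Banhasasim from 19.7 ± 0.32 to 84.1 ± 7.87 CPM (SD, n = 2), a log2 change of 2.09 ± 0.09 (adjusted p = 1.22e-14), and with Sayeok by 0.42 ± 0.08 (adjusted p = 0.00102). SESN2, another inhibitor of mTORC1 induced by stress, rose with Banhasasim by 1.09 ± 0.08 (adjusted p = 4.58e-10), 1.03 ± 0.11 more than with Sayeok and 1.00 ± 0.11 more than with Bojungikgi. Its relative SESN1 fell with all 3, by -0.59, -0.30 and -0.28. With Banhasasim the changes of DDIT4, SESN2, SESN1 and SESN3 (-0.86) were each further from 0 than that of any of the 37 genes, among which CTSL had the largest. So were those of TP53INP1 (-0.76), TP53INP2 (-0.72), ATP6V1B1 (-0.65) and SCPEP1 (0.6) of the other lists. The list genes named were those called with the smallest p, so this comparison follows in part from that choice.

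The single Yijung libraries give values without a replicate check. NEU1 was at 46.0, 54.1 and 52.9 CPM at 500, 100 and 20 µg/mL, and OPTN at 17.8, 19.4 and 20.8 CPM. At 500 µg/mL both lay inside the range of the Bojungikgi libraries of that dose. SQSTM1 was at 379, 373 and 363 CPM, TFE3 at 65.3, 64.2 and 59.6 CPM, and WIPI1 at 5.67, 6.14 and 7.16 CPM. ATP6V0D1, at 57.9, 64.1 and 64.6 CPM, was below the vehicle libraries at each dose.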

How the data were processed

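RNA was sequenced from 30 HT29 libraries. The deposited values are expected counts per gene estimated by RSEM. STAR 2.7.3a, RSEM 1.3.3, Trim Galore 0.6.5 and FastQC 0.11.9 are listed in the submitters' processing notes, as is GRCh38, while no source used here gives the annotation release or strand setting. The table holds 60675 genes, and 240 of its 270 columns belong to no sample listed here and were not used. Expected counts were rounded to whole numbers, which applied to 25.48% of the values above 0 and moved none by more than 0.5. GENCODE 29 supplied positions, exon lengths and GC content. The labels give 0.1% DMSO and the series text another concentration, and the labels were followed.

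Groups came from the labels. Genes were kept by edgeR's filterByExpr (minimum count 10), leaving 18783, and TMM factors and edgeR 4.0.16's robust quasi-likelihood test (R 4.3.3) were used in 1 fit of all 13 groups, with 17 residual degrees of freedom and Benjamini-Hochberg adjustment over all genes tested. The SE of a log2 fold change was taken as its size over the root of F. The biological coefficient of variation was 6.38%. The procedure was run on simulated counts, with pass conditions set for unchanged genes and for planted changes larger than those called among the 37. It set no condition for changes of their size, and those counts held no shift between doses with exon length or GC content. Libraries held 36273849 to 71625585 counts, and differences near the SEs given cannot be resolved. The 37 genes and the pathway lists were chosen with earlier results of these data known. The text names the genes called at 500 against 20 µg/mL, further genes by role, and list genes called with the smallest p. ATP6V0D1, CTSA, CTSB, GABARAPL2 and NBR1 were named after their values were seen. Alternatives were RLE factors, DESeq2 1.42.0, no low-count filter, the compared groups alone, no mitochondrial genes, a replicate block, an exon length and GC offset (splines with 4 degrees of freedom, 18642 genes) and each library left out. The offset, the comparisons of 20 µg/mL with vehicle and the joint omission of 2 libraries were chosen after seeing the data.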

Additional observations from a re-analysis of the deposited data

Results flagged for a closer look

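The change of SQSTM1 from 20 to 500 µg/mL differed between 2 extracts by a test of the difference itself. With Sayeok it exceeded that with Bojungikgi by 0.36 on the log2 scale (edgeR adjusted p = 0.0277), and 3 of 3 Sayeok libraries at 500 µg/mL lay above those at 20 µg/mL. The same libraries gave the call, so their separation is not a second test. Over the alternatives the adjusted p ran from 1.82e-05 to 0.176.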

How the results depend on the processing

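Of 77 calls among the 37 genes over all comparisons, 12 passed in every alternative run for them. CTSZ with Bojungikgi at 500 µg/mL against vehicle reversed to 0.02 (adjusted p = 0.871) with the length and GC offset. At 500 against 20 µg/mL, a fit of the compared groups alone called 1 gene with Banhasasim and 0 with Bojungikgi, no low-count filter left 2 with Sayeok, and the offset gave 4 with Bojungikgi. Of all genes, these settings called 1002, 54, 736 and 797, in that order. Against vehicle, the compared groups alone gave 1, 5 and 1 at 500 µg/mL and 0, 2 and 6 at 20 µg/mL for Banhasasim, Sayeok and Bojungikgi. That fit called 648, 1264 and 189 of all genes at 500 µg/mL and 38, 1537 and 1985 at 20 µg/mL. Of the 37 genes, no filter gave 8 with Sayeok at 20 µg/mL, beside 3920 of all genes. Without vehicle replicate 1 and Bojungikgi 500 µg/mL replicate 2, 7 were called with Bojungikgi at 500 µg/mL, beside 1569 of all genes. Between extracts, the offset gave 1 for Banhasasim less Sayeok and 2 for Banhasasim less Bojungikgi, DESeq2 gave 1 for the latter, and the compared groups alone gave 0 for Sayeok less Bojungikgi. Of all genes, these fits called 325, 569, 554 and 3, in that order. Fits of the compared groups alone have fewer samples; otherwise the cause was not tested.

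Leaving out 1 library gave 1 to 3 calls with Sayeok and with Bojungikgi at 500 against 20 µg/mL. Of all genes, 386 to 445 and 164 to 354 were called. At 500 µg/mL against vehicle such omissions gave 7 to 13 and 12 to 18, beside 1437 to 3793 and 2822 to 6054. At 20 µg/mL they gave 3 to 13 and 3 to 11, beside 990 to 4370 and 844 to 4352. With Banhasasim, leaving out 1 vehicle library gave 5 to 8 at 500 µg/mL and 3 to 9 at 20 µg/mL. Of all genes, 2203 to 3077 and 608 to 3491 were then called. Leaving out a Banhasasim library leaves 1 in its group, so those counts are not given here. The 500 against 20 µg/mL calls lost that way are given by gene above. Leaving out 1 Sayeok or Bojungikgi library gave 0 to 1 for Banhasasim or Sayeok less Bojungikgi, and 0 elsewhere. Of all genes, 264 to 420 and 4 to 8 were called for those differences. Deviations of libraries with the same replicate number correlated at -0.104 to 0.195, so the numbers are not taken as pairs. With the replicate number as a block the counts were 4, 4 and 2 at 500 against 20 µg/mL, 5, 12 and 15 at 500 µg/mL and 9, 14 and 10 at 20 µg/mL against vehicle, 0 at 100 against 20 µg/mL, and 0, 0 and 1 between extracts. Of all genes, the block fit called 1553, 623 and 395 at 500 against 20 µg/mL. Against vehicle it called 2753, 3423 and 5796 at 500 µg/mL and 2011, 3778 and 3711 at 20 µg/mL. It called 14, 0 and 2 at 100 against 20 µg/mL, and 216, 447 and 7 between extracts. With 2 or 3 libraries per group, differences close to the SEs cannot be resolved.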
